A study of Mus musculus with 16 samples.

Results

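The myogenic regulatory and fusion factors are 7 genes of the 29730 in the count table. They were found by matching the Ensembl identifiers of the table to GENCODE symbols on GRCm38, and all 7 had a row. Myod1, Myog, Myf5 and Myf6 encode the muscle basic helix-loop-helix (bHLH) transcription factors, Pax7 encodes the paired-box factor of muscle stem cells, and Mymk and Mymx encode the membrane proteins myomaker and myomixer. RNA was sequenced from the tibialis anterior, the leg muscle that lifts the foot, of male mice with the strain given as C57BL/6N and an age of 7 weeks. Wild-type mice received phosphate-buffered saline (WT_PBS) or the antisense oligonucleotide ASO1 (WT_ASO), and Bin1mck-/- mice, in which loss of Bin1 models recessive centronuclear myopathy, received saline (KO_PBS) or ASO1 (KO_ASO). Each of the 4 groups had 4 samples. ASO1 is directed against Dnm2. The labels do not state its dose or schedule. In the name of the knockout line, mck is the usual short form of muscle creatine kinase, a gene whose promoter serves for deletion in muscle fibres, but the labels do not spell this out. The groups share sex, age and muscle, and no group without injection was analysed here.

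In adult muscle, satellite cells lie quiescent beside the fibres and carry Pax7 and often Myf5. When they are activated they make Myod1, and those that go on to differentiate make Myog, leave the cell cycle, and fuse with the help of Mymk and Mymx. Mature fibre nuclei keep Myf6 high, and Myog rises in fibre nuclei when the nerve supply is lost. In whole muscle RNA, fewer cells of a type and less RNA per cell cannot be told apart, and the source of a transcript, satellite cell or fibre nucleus, is not resolved.

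Total counts per sample ran from 27591900 to 40862854. Bin1 measured 31.7 to 47.7 CPM (reads of the gene scaled to a common library size) in the 8 knockout samples and 462.6 to 619.8 CPM in the 8 wild-type samples. Dnm2 measured 20.7 to 31.1 CPM in the 8 samples given ASO1 and 50.2 to 67.7 CPM in those given saline. The libraries therefore matched their labels for both genes. The summed level of 6 muscle fibre genes, Acta1, Ckm, Tnnt3, Myh4, Myh1 and Mylpf, was 118581 to 202431 CPM, and no marker of that list was at 0 in any group.

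The loci of the 7 genes do not overlap another gene with a mean of at least 10 counts on either strand. Myf5 (ENSMUSG00000000435, chromosome 10, 107482908 to 107486134) and Myf6 (ENSMUSG00000035923, chromosome 10, 107492853 to 107494737) lie on the minus strand, 6718 bases apart. Myog (ENSMUSG00000026459) lies on chromosome 1, 134289989 to 134292548, and Myod1 (ENSMUSG00000009471) on chromosome 7, 46376474 to 46379099, both on the plus strand. Pax7 (ENSMUSG00000028736) spans chromosome 4, 139737062 to 139833528, on the minus strand. Mymk (ENSMUSG00000009214) lies on chromosome 2, 27061636 to 27072179, and Mymx (ENSMUSG00000079471) on chromosome 17, 45600971 to 45602102, both on the minus strand. All 7 are protein coding.

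The bHLH factors bind E boxes, and Myog is itself a gene that these factors act on, so its promoter is shown beside that of Myf5, the other bHLH gene whose level passed the test between genotypes. Both sequences are from RefSeq on GRCm38.p6, run 5′ to 3′ on the strand of the gene, and hold 250 bases before and 50 bases after the start of the transcript. Capitals mark each E box, CANNTG, a motif that reads as CANNTG on both strands.
Myog, chr1:134289754-134290053, plus strand: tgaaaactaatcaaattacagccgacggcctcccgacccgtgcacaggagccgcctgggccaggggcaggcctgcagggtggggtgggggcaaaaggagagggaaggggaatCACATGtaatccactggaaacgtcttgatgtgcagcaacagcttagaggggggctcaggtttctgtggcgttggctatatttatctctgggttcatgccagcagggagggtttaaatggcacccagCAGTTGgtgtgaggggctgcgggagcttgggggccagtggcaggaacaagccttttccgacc
Myf5, chr10:107486085-107486384, minus strand: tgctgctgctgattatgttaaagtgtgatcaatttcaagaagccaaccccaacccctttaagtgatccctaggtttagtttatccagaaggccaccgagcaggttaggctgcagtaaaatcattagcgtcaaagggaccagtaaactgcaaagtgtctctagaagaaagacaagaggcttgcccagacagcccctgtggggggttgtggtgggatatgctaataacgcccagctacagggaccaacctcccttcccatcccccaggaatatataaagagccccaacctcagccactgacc
The Myog window held 2 E boxes, CACATG at -138 and CAGTTG at -12 relative to the start, and the Myf5 window held 0. Of 32851 promoter windows of this length, 72.3% held at least 1 E box and 39.6% held at least 2. The matches are descriptions of these letters, not measured binding sites.

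The coding sequences of the bHLH factors are related, which bears on how reads can be assigned. The longest run of identical bases between coding sequences was 26 bases, between Myod1 and Myf5, and 21 bases between Myod1 and Myog. Both runs are shown because they are the longest among the 4 genes.
Myod1 and Myf5: cgcaaggccgccaccatgcgcgagcg
Myod1 and Myog: aaagtgaatgaggccttcgag
The remaining pairs among the 4 genes shared at most 14 bases in a row. The labels do not state the read length.

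Levels can be compared between genes per length, as CPM per kb of exon. In WT_PBS muscle Myf6 was highest at 71.6 ± 17.6 CPM per kb (SD, n = 4), followed by Myod1 at 6.45 ± 1.11 and Myog at 2.21 ± 0.479. Pax7 at 0.722 ± 0.132 CPM per kb and Myf5 at 0.637 ± 0.180 did not differ beyond their spread, and Mymk (0.336 ± 0.0877) and Mymx (0.0248 ± 0.0287) were lowest. Of these genes, Myf6 thus gave most of the transcripts per length, and the stem cell and fusion genes were rare. In KO_PBS the order was different: Myog, at 14.3 ± 4.24 CPM per kb, lay above Myod1 at 5.44 ± 1.01, and Mymk at 0.802 ± 0.299 lay above Pax7 at 0.273 ± 0.0900. Pax7, Myf5 (0.258 ± 0.0426 CPM per kb) and Mymx (0.221 ± 0.0869) did not differ beyond their spread in KO_PBS. Myf6 remained highest in KO_PBS at 91.0 ± 5.596 CPM per kb. In WT_ASO the order was as in WT_PBS down to Myog, and Mymk at 0.577 ± 0.529 CPM per kb could not be separated from Myf5 (0.561 ± 0.203) or Pax7 (0.528 ± 0.0576). In KO_ASO, Myod1 (12.02 ± 4.92 CPM per kb) and Myog (8.44 ± 3.66) overlapped in their spread, and Mymk (1.18 ± 0.907), Pax7 (0.408 ± 0.0998), Myf5 (0.356 ± 0.192) and Mymx (0.271 ± 0.197) were the lower 4.

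**Figure D1:**
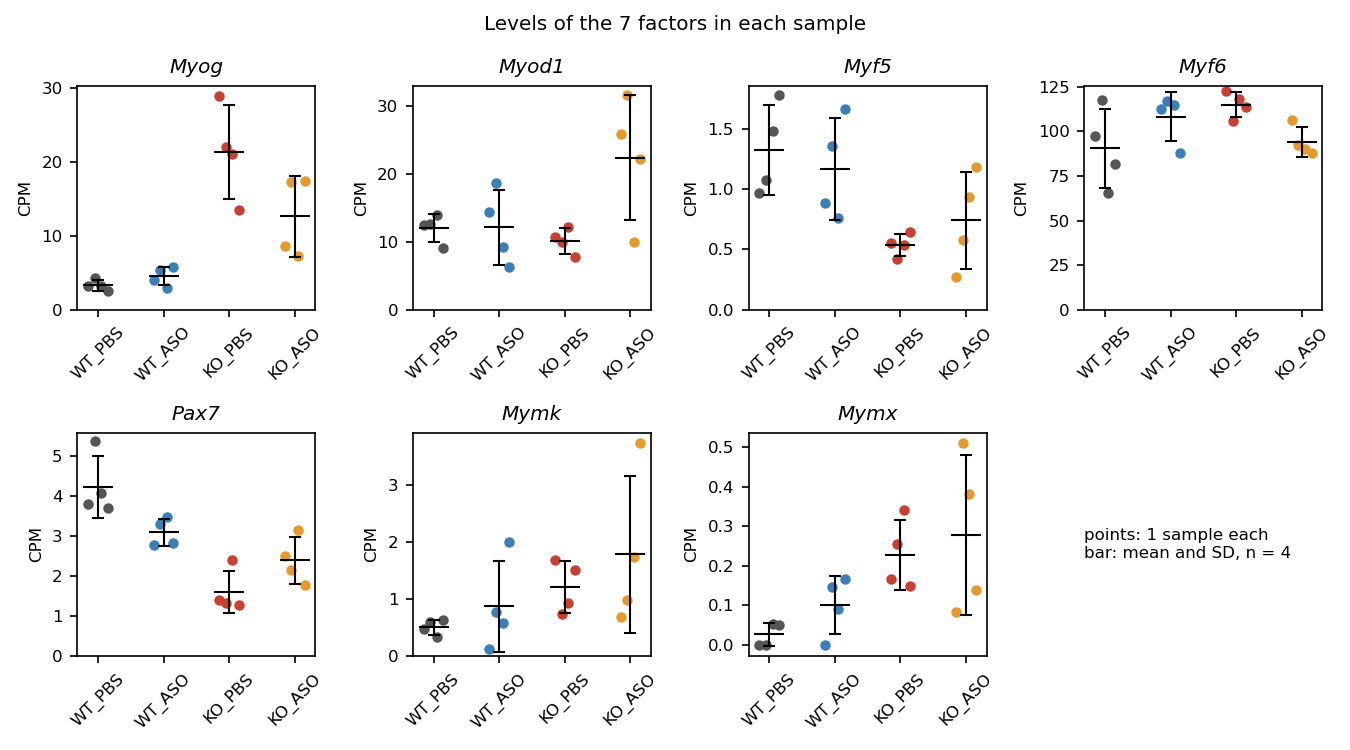
Level of each of the 7 factors in CPM (y axis, linear, a separate scale in each panel) in the 4 groups (x axis); points are samples and bars the mean and SD of 4 samples. Myog separates KO_PBS, at 13.4 to 28.9 CPM, from both wild-type groups, Pax7 is lowest in KO_PBS and intermediate in KO_ASO, and Myod1 has its 3 highest values in KO_ASO.

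The effect of the Bin1 deletion was taken from KO_PBS vs WT_PBS. Myog rose 6.51-fold in knockout muscle, and the stem cell genes Pax7 and Myf5 fell to 37.9% and 40.6% of the WT_PBS level, while Myod1 did not pass the test. Of the 7 genes, 6 passed the filter on low counts and 3 of these were differentially expressed genes (DEGs), 1 higher and 2 lower. Over all 14960 genes tested with edgeR, 12.6% were DEGs in this comparison, 7.43% higher and 5.12% lower. This share rests on single samples: the 1878 genes called became 997 without KO_PBS replicate 1 and 1080 without WT_PBS replicate 4. DESeq2 and limma-voom also called 3, where they called 16.9% and 18% of all genes. No overlap between KO_PBS and WT_PBS was seen for 5 of the 7 genes, Myog, Pax7, Myf5, Mymk and Mymx, beside 20.4% of all genes tested.

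Myog, the factor that drives differentiation of myoblasts into myotubes, measured 3.22, 4.25, 3.22 and 2.51 CPM in the WT_PBS samples and 28.9, 22.0, 21.1 and 13.4 CPM in the KO_PBS samples. Every knockout sample lay above every wild-type sample, and the lowest KO_PBS value was over 3 times the highest WT_PBS value. The log2 fold change (log2FC) was 2.70 with a standard error (SE) of 0.32 (edgeR adjusted P = 6.89e-05). By two-sided exact permutation P was 0.0286, the lowest value that 4 samples against 4 allow.

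Pax7, the transcription factor that marks satellite cells, measured 3.80, 5.36, 4.07 and 3.69 CPM in WT_PBS and 1.41, 1.33, 2.39 and 1.28 CPM in KO_PBS. All KO_PBS samples lay below all WT_PBS samples, and KO_PBS replicate 3 was set apart from the other 3 knockout samples. The log2FC was -1.39 (SE 0.22, edgeR adjusted P = 0.000654, exact permutation P = 0.0286).

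Myf5, the bHLH factor of committed satellite cells and early myoblasts, measured 0.965, 1.08, 1.48 and 1.78 CPM in WT_PBS and 0.551, 0.425, 0.536 and 0.641 CPM in KO_PBS. The groups did not overlap, but the KO_PBS values rest on 15 to 26 reads a sample. The log2FC was -1.30 (SE 0.37, edgeR adjusted P = 0.0300). This call was lost when libraries were scaled by their totals only (log2FC -1.15, adjusted P = 0.0537) and when WT_PBS replicate 3 or 4, or KO_PBS replicate 1, 2 or 3, was left out (adjusted P from 0.0571 to 0.0982).

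Myod1, the factor of activated satellite cells and myoblasts, measured 12.5, 12.6, 13.9 and 9.05 CPM in WT_PBS and 10.6, 9.92, 12.2 and 7.69 CPM in KO_PBS. The samples of the 2 groups overlapped. The log2FC was -0.25 (SE 0.33, edgeR adjusted P = 0.687). The Bin1 deletion thus went with a large difference in Myog and no detectable one in Myod1.

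Myf6, the bHLH factor of mature fibres, measured 97.5, 117, 65.3 and 81.6 CPM in WT_PBS and 122, 106, 118 and 113 CPM in KO_PBS. WT_PBS replicate 2 lay within the knockout range, so the groups overlapped. The log2FC was 0.35 (SE 0.14, edgeR adjusted P = 0.122). It passed the threshold with library totals only (log2FC 0.50, adjusted P = 0.0161), where the median of all genes was 0.14 against -0.01 with the scaling used throughout, and without WT_PBS replicate 2 (log2FC 0.50, adjusted P = 0.0277).

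Myomaker, the protein of Mymk that myoblasts need on their membranes to fuse, had few reads. Mymk measured 0.468, 0.596, 0.337 and 0.627 CPM in WT_PBS and 1.68, 0.737, 0.926 and 1.504 CPM in KO_PBS. All KO_PBS samples lay above all WT_PBS samples (exact permutation P = 0.0286), yet the log2FC of 1.26 had an SE of 0.62 and did not pass the test (edgeR adjusted P = 0.203). Fitted on these 2 groups alone, it did (adjusted P = 0.0295).

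Mymx encodes myomixer, a micropeptide that works with myomaker in fusion, and fell under the filter on low counts. Its reads numbered 0, 0, 2 and 2 in the WT_PBS samples and 6, 9, 14 and 6 in the KO_PBS samples. The KO_PBS samples all had more reads than any WT_PBS sample. The ratio of the summed counts, 35 against 4 and corrected for library size, was 7.97 (95% exact interval 2.85 to 30.9, which covers counting error only). By exact permutation P was 0.0286, and edgeR without the filter gave an adjusted P of 0.0322.

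**Figure D2:**
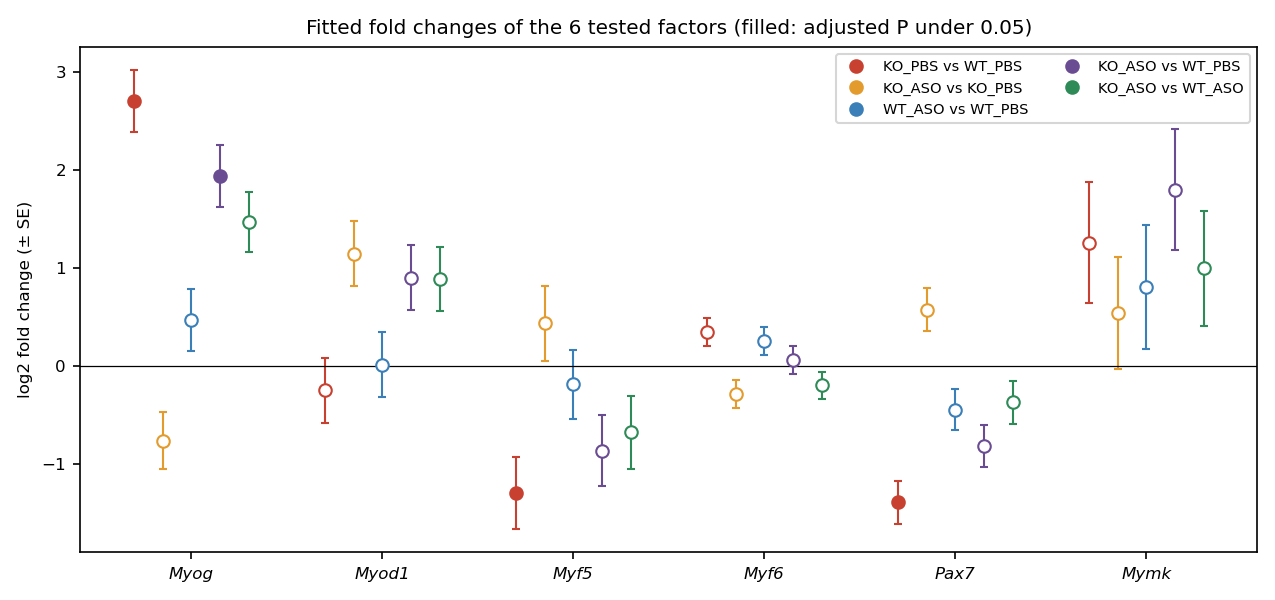
Fitted log2 fold changes (y axis, ± SE) of the 6 genes that passed the filter on low counts (x axis), with 1 colour for each comparison; filled points have an edgeR adjusted P under 0.05. For KO_PBS vs WT_PBS, Myog is filled at 2.70, Pax7 at -1.39 and Myf5 at -1.30, and the single filled point elsewhere is Myog for KO_ASO vs WT_PBS at 1.94.

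The effect of the oligonucleotide in knockout muscle was taken from KO_ASO vs KO_PBS, which shares the KO_PBS samples with the comparison above. Myod1 measured 2.21 times the KO_PBS level after ASO1, Myog 59.0% and Pax7 149%, but edgeR called 0 of the 6 genes tested, beside 3.64% of all genes. Those 544 genes became 208 without KO_PBS replicate 1 and 322 without replicate 4. They became 212, 328, 263 and 831 without KO_ASO replicates 1, 2, 3 and 4. Unadjusted P was under 0.05 for 3 of the 6 genes tested, Myod1, Myog and Pax7. DESeq2 called 1, Myod1, and limma-voom called 1, Myog, beside 7.06% and 7.95% of all genes with these tools. The groups did not overlap for 0 of the 7 genes, beside 10.4% of all genes.

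Myod1 measured 25.8, 31.6, 9.93 and 22.2 CPM in the KO_ASO samples. Replicates 1, 2 and 4 lay above all other samples of the study, and replicate 3 lay within the KO_PBS range. The log2FC against KO_PBS was 1.15 (SE 0.33, edgeR adjusted P = 0.0692, exact permutation P = 0.0857). The call depended on the tool and the samples, since DESeq2 gave an adjusted P of 0.0103, edgeR without KO_ASO replicate 3 gave 0.0261 with a log2FC of 1.39, and edgeR without WT_ASO replicate 4 gave 0.0447.

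Myog measured 8.58, 17.2, 7.23 and 17.4 CPM in KO_ASO. A pair of these samples lay within the KO_PBS range and a pair below it, and all 4 lay above every sample of both wild-type groups. The log2FC against KO_PBS was -0.76 (SE 0.29, edgeR adjusted P = 0.174, exact permutation P = 0.114), and limma-voom gave -1.003 with an adjusted P of 0.0233.

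Pax7 measured 2.498, 2.14, 3.15 and 1.78 CPM in KO_ASO. The lower values overlapped KO_PBS through its replicate 3, and all 4 lay below every WT_PBS sample. The log2FC against KO_PBS was 0.57 (SE 0.22, edgeR adjusted P = 0.172, exact permutation P = 0.0857), and without KO_PBS replicate 3 it was 0.84 (adjusted P = 0.0341).

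The other genes were not separated between KO_ASO and KO_PBS. Myf6 measured 106, 92.1, 90.0 and 88.0 CPM in KO_ASO, with a difference of -0.29 on the log2 scale (SE 0.14, edgeR adjusted P = 0.304). Myf5 measured 0.272, 0.575, 0.934 and 1.18 CPM, which gave 0.44 on the log2 scale (SE 0.38, edgeR adjusted P = 0.629). Its KO_ASO samples spread over both saline groups. Mymk measured 0.679, 0.991, 1.73 and 3.73 CPM, and its log2FC was 0.54 (SE 0.57, edgeR adjusted P = 0.702). Mymx had 3, 16, 11 and 4 reads, a ratio of summed counts of 1.18 (95% exact interval 0.716 to 1.95, counting error only). For both fusion genes the difference lay within its error.

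The treated knockout was set against saline wild-type muscle in KO_ASO vs WT_PBS. Myog was the single DEG of the 6 genes tested, 3.84-fold higher (log2FC 1.94, SE 0.31, edgeR adjusted P = 0.0418), where 0.0401% of all genes tested were DEGs. DESeq2 called 2, Myog and Pax7, beside 0.635% of all genes, and limma-voom called 0, beside 0.0468%. The call of Myog was lost without the filter (adjusted P = 0.131), with limma-voom (0.0707), with the replicate block (0.0566) and with these groups compared alone (0.133). Leaving out samples ended it in 11 of 16 cases, with adjusted P over all 16 from 0.00884 to 0.243 and a log2FC of 1.75 to 2.13. The groups did not overlap for 4 of the 7 genes, Myog, Pax7, Mymk and Mymx, beside 5.39% of all genes. Pax7 was 56.5% of the WT_PBS level (log2FC -0.82, SE 0.21, edgeR adjusted P = 0.242, DESeq2 adjusted P = 0.0404). Mymk had a log2FC of 1.80 (SE 0.62, edgeR adjusted P = 0.463), and Mymx a ratio of summed counts of 9.43 (95% exact interval 3.36 to 36.6, counting error only). In the treated knockout these 4 genes thus lay on the same side of WT_PBS as in the saline knockout, in comparisons that share the WT_PBS samples.

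In wild-type muscle, ASO1 left no gene of the 7 past the threshold. For WT_ASO vs WT_PBS edgeR called 0 of 6, with unadjusted P under 0.05 for 1, and DESeq2 and limma-voom called 0; 0.00668% of all genes tested were called by edgeR and by limma-voom and 0.221% by DESeq2. Pax7 measured 2.78, 3.30, 3.46 and 2.83 CPM in WT_ASO. These values all lay below those of WT_PBS, and Pax7 was the 1 gene of the 7 whose groups did not overlap, beside 3.22% of all genes. The log2FC was -0.45 (SE 0.21, edgeR adjusted P = 0.773, exact permutation P = 0.0286). Myog measured 4.06, 5.32, 3.01 and 5.75 CPM in WT_ASO, and its log2FC was 0.47 (SE 0.32, edgeR adjusted P = 0.850). Myod1 ranged from 6.25 to 18.6 CPM in WT_ASO, a wider spread than in WT_PBS, with a log2FC of 0.01 (SE 0.33). Mymk spread most, from 0.131 CPM in replicate 1 to 2.001 CPM in replicate 4, and Mymx had 0, 5, 3 and 6 reads. The ratio of summed Mymx counts to WT_PBS, 14 against 4 and corrected for library size, was 3.64 (95% exact interval 1.14 to 15.2, counting error only), but the samples overlapped (exact permutation P = 0.171).

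Between genotypes under ASO1, KO_ASO vs WT_ASO, edgeR called 0 of 6 genes, with unadjusted P under 0.05 for 2, Myog and Myod1, beside 0.0735% of all genes called. That share stands for 11 genes, which ran from 2 to 19 when samples were left out and were 44 with the replicate block. DESeq2 called 1, Myog, beside 2.82% of all genes, and limma-voom 0, beside 0.0134%. Myog was higher in every KO_ASO sample than in every WT_ASO sample, and the log2FC was 1.47 (SE 0.31, edgeR adjusted P = 0.0796, exact permutation P = 0.0286). DESeq2 gave it an adjusted P of 0.000546, and edgeR without KO_ASO replicate 3 gave 0.0449. Myog was the 1 gene of 7 without overlap, beside 6.97% of all genes. The ratio of summed Mymx counts, also corrected for library size, was 2.59 (95% exact interval 1.35 to 5.22, counting error only), with overlapping samples (exact permutation P = 0.257).

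Whether ASO1 acted differently in the 2 genotypes was tested by the interaction of genotype and treatment. EdgeR called 0 of the 6 genes tested, as did DESeq2 and limma-voom, and 0.575% of all genes were called by edgeR, 2.57% by DESeq2 and 0.722% by limma-voom. The 86 genes that edgeR called ran from 23, without WT_PBS replicate 4, to 102, without KO_ASO replicate 4, when samples were left out. Unadjusted P was under 0.05 for 4 of the 6 genes tested. The interaction log2 values were 1.02 for Pax7 (SE 0.31, edgeR adjusted P = 0.154), -1.23 for Myog (SE 0.43, adjusted P = 0.235), -0.55 for Myf6 (SE 0.20, adjusted P = 0.249) and 1.13 for Myod1 (SE 0.47, adjusted P = 0.326). Without KO_PBS replicate 3 the value of Pax7 was 1.29 (edgeR adjusted P = 0.0414).

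The balance between Myog and Myod1 was examined within each sample, as a ratio of CPM per kb that does not depend on library scaling. This ratio was chosen after the values were seen and is a description without a test. It was 0.321, 0.420, 0.289 and 0.345 in WT_PBS and 3.38, 2.77, 2.15 and 2.17 in KO_PBS. In KO_ASO it was 0.415, 0.678, 0.907 and 0.979, and in WT_ASO 0.351, 0.357, 0.407 and 1.15. Myog therefore exceeded Myod1 in all 4 KO_PBS samples and in WT_ASO replicate 4, and in no other sample. KO_ASO did not overlap KO_PBS. It overlapped each wild-type group through 1 sample: KO_ASO replicate 1 lay under WT_PBS replicate 2, and WT_ASO replicate 4 lay above all KO_ASO samples. The mean log2 ratio was 0.53 higher in WT_ASO than in WT_PBS, and 0.12 higher without WT_ASO replicate 4. In KO_ASO it was 1.05 above WT_PBS. Of the summed CPM per kb of the 4 bHLH factors, Myog made up 2.76% ± 0.504 in WT_PBS, 3.27% ± 1.25 in WT_ASO, 12.8% ± 3.05 in KO_PBS and 8.79% ± 3.59 in KO_ASO (SD, n = 4 each). Myod1 made up 8.27% ± 2.55, 6.61% ± 2.34, 4.88% ± 0.733 and 12.3% ± 4.24 in the same order (SD, n = 4 each). Myf6 held the largest share in each group, from 78.5% ± 6.90 in KO_ASO to 89.5% ± 2.40 in WT_ASO (SD, n = 4 each).

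**Figure D3:**
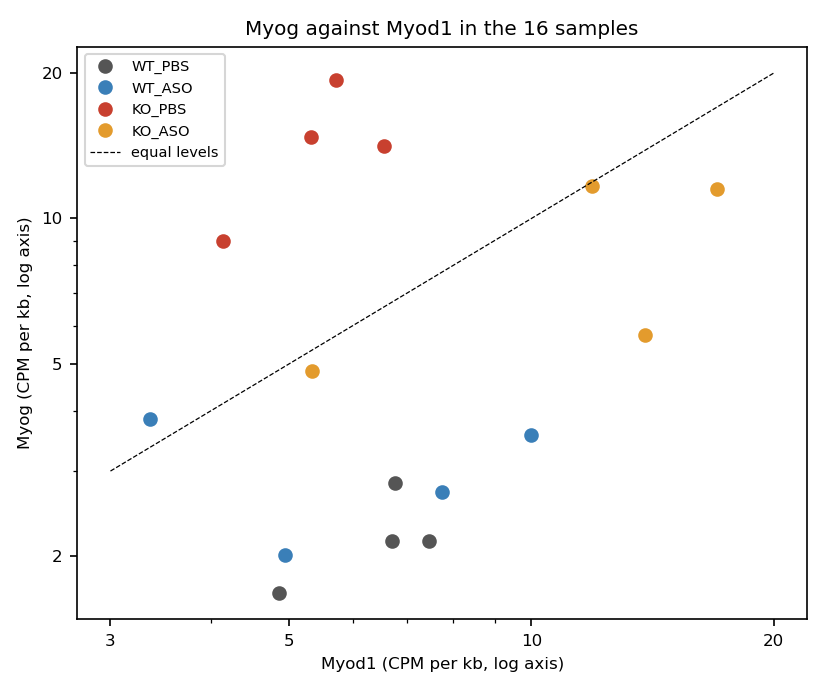
Level of Myog (y axis) against that of Myod1 (x axis), both in CPM per kb on log axes, for the 16 samples coloured by group; the dashed line marks equal levels. The 4 KO_PBS samples lie above the line with ratios of 2.15 to 3.38, and the KO_ASO samples lie just under it or further to the right with ratios of 0.415 to 0.979.

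Genes that these factors act on were examined from a list of 20 targets, among them subunits of the muscle acetylcholine receptor, embryonic contractile genes and genes of the response to denervation. The list was chosen with earlier results of these data known, so its share of called genes is a description only. In KO_PBS vs WT_PBS, 14 of the 20 rose and 0 fell, where 7.43% of all genes rose, and the median log2FC was 0.98 where that of all genes tested was -0.01. Leaving out samples gave 11 to 15 called. Ncam1, a cell adhesion molecule of regenerating and denervated fibres, measured 38.3 ± 7.02 CPM in KO_PBS and 7.998 ± 0.805 CPM in WT_PBS (SD, n = 4 each; log2FC 2.26, SE 0.15, edgeR adjusted P = 1.03e-07). Runx1, a transcription factor induced by denervation, had a value of 2.30 (log2FC, SE 0.25, edgeR adjusted P = 2.59e-05), and Chrna1, the alpha subunit of the acetylcholine receptor, 1.78 (SE 0.22, adjusted P = 8.27e-05). Des, the intermediate filament protein desmin, rose by 0.75 on the log2 scale (SE 0.10, edgeR adjusted P = 0.000118). The receptor subunits Chrnd (2.65), Chrng (1.67) and Chrnb1 (0.78) also rose, whereas the adult subunit Chrne had a log2FC of -0.04 (edgeR adjusted P = 0.860). Among contractile genes, Tnnt2 (log2FC 1.71), Myl4 (1.44) and Myh8 (0.97) rose, and Myh3, embryonic myosin, had a log2FC of 0.29 (edgeR adjusted P = 0.518). Of the 20 targets, Des, Gadd45a, Myl4, Ckm and Mb overlap a gene on the other strand, and the labels do not state whether the counting used the strand.

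In KO_ASO vs KO_PBS, 6 of the 20 targets fell and 0 rose, where 2.83% of all genes fell, with a median log2FC of -0.51 beside 0.01 for all genes. The 6 were Chrnd (log2FC -1.74), Ncam1 (-1.54), Runx1 (-1.49), Chrna1 (-0.95), Myh8 (-0.93) and Des (-0.60), and 3 of them, Des, Ncam1 and Runx1, remained called without KO_PBS replicate 1. Ncam1 was 13.1 ± 2.39 CPM in KO_ASO (SD, n = 4). For KO_ASO vs WT_PBS edgeR called 0 of the 20 targets, with unadjusted P under 0.05 for 10, and DESeq2 called 6 and limma-voom 0. Over all genes edgeR called 0.0401% there, DESeq2 0.635% and limma-voom 0.0468%. For WT_ASO vs WT_PBS edgeR, DESeq2 and limma-voom called 0 targets, with unadjusted P under 0.05 for 4, beside 0.00668%, 0.221% and 0.00668% of all genes called. Under the interaction, where 0.575% of all genes were called by edgeR and 2.57% by DESeq2, edgeR called 3 targets, all lower: Ncam1 (log2 -1.52, SE 0.20, edgeR adjusted P = 0.00348), Des (-0.74, adjusted P = 0.0234) and Gadd45a (-1.11, adjusted P = 0.0437). That count was 9 with DESeq2 and ran from 1 to 5 when samples were left out.

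Satellite cell genes other than Pax7 and Myf5 moved in both directions in KO_PBS vs WT_PBS. Of 14, 5 fell and 2 rose, where 5.12% of all genes fell and 7.43% rose, and the median log2FC was -0.35. Calcr, the calcitonin receptor of quiescent satellite cells, fell by 2.43 on the log2 scale (SE 0.55, edgeR adjusted P = 0.00835), and Fgfr4, a fibroblast growth factor receptor, by 1.38 (SE 0.21, adjusted P = 0.000564). Calcr measured 0.519 to 0.928 CPM in WT_PBS and 0.0740 to 0.146 CPM in KO_PBS, so its fall rests on few reads. Heyl and Notch3, of the Notch pathway and also made by cells of the vessel wall, had log2FCs of -0.63 (edgeR adjusted P = 0.0211) and -0.48 (adjusted P = 0.0390), and the adhesion molecule Vcam1 -0.59 (adjusted P = 0.0258). For Heyl and Notch3, WT_ASO vs WT_PBS gave similar log2FCs of -0.57 and -0.58, which did not pass (edgeR adjusted P = 0.651 and 0.435). Their means in WT_PBS, 15.4 and 45.5 CPM, were the highest of the 4 groups. Both genes that rose, Itga7 (log2FC 0.87, edgeR adjusted P = 0.000924) and Sdc4 (0.56, adjusted P = 0.0433), are also made outside satellite cells, Itga7 by muscle fibres. Pax3, a paralogue of Pax7, had a log2FC of -0.02 (edgeR adjusted P = 0.986), and Cdh15, the cadherin of satellite cells, 0.06 (adjusted P = 0.839). The count of 7 was 4 with library totals only, and it was 3 when replicate 3 or 4 of WT_PBS or replicate 2 of KO_PBS was left out, and 4 when KO_PBS replicate 1 was. In KO_ASO vs KO_PBS 1 of the 14 was called, Itga7, at -0.59 (edgeR adjusted P = 0.0307), a share near the 3.64% called over all genes. This count was 2 with DESeq2 and 0 with these groups compared alone, and it was 0 if replicate 1 or 4 of KO_PBS, or any of replicates 1, 2 and 3 of KO_ASO, was dropped, and 2 if KO_PBS replicate 3 was.

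Of 14 partners that the bHLH factors bind, 2 fell and 0 rose in KO_PBS vs WT_PBS, a share near the 12.6% called over all genes. They were the acetyltransferase gene Ep300 (log2FC -0.49, SE 0.08, edgeR adjusted P = 0.00137) and the chromatin remodelling subunit gene Smarcd3 (-0.48, SE 0.11, adjusted P = 0.00950). In KO_ASO vs KO_PBS both were higher, by 0.32 for Ep300 (edgeR adjusted P = 0.0430) and 0.41 for Smarcd3 (adjusted P = 0.0481), beside 3.64% of all genes called. Library totals only left 0 of 14 called there. Carm1, an arginine methyltransferase, and Tcf12, an E protein, did not pass in KO_PBS vs WT_PBS (log2FC -0.38 and 0.12, edgeR adjusted P = 0.0553 and 0.332). Smarcd3 overlaps Chpf2 and Carm1 overlaps Yipf2 on the other strand.

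Of 16 tested repressors of these factors, 2 rose and 1 fell in KO_PBS vs WT_PBS, shares near the 7.43% higher and 5.12% lower over all genes. Mdfi, whose product holds the bHLH factors in the cytoplasm, measured 0.244 ± 0.0359 CPM in WT_PBS and 1.03 ± 0.327 CPM in KO_PBS (SD, n = 4 each; log2FC 2.06, SE 0.42, edgeR adjusted P = 0.00458). Hdac4, a deacetylase of the denervation response, rose by a log2FC of 0.54 (edgeR adjusted P = 0.0107), and Bhlhe41, a bHLH repressor, had a log2FC of -1.05 (adjusted P = 0.0219). Hdac9 had a log2FC of 0.51 and did not pass (edgeR adjusted P = 0.0662). In KO_ASO vs KO_PBS edgeR called 0 of the 16, with unadjusted P under 0.05 for 4, beside 3.64% of all genes called. DESeq2 and limma-voom each called 1, near their shares of 7.06% and 7.95% over all genes.

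Of 20 tested genes of the fusion machinery, 4 rose and 0 fell in KO_PBS vs WT_PBS, where 7.43% of all genes rose. They were Dysf (log2FC 0.59, SE 0.10, edgeR adjusted P = 0.00127), Itgb1 (0.52, adjusted P = 0.00127), Cav3 (0.74, adjusted P = 0.00757) and Cd81 (0.43, adjusted P = 0.0256). Cd81 overlaps a gene on the other strand. Dysferlin and caveolin-3, the products of Dysf and Cav3, are also membrane proteins of mature fibres, the former in membrane repair. DESeq2, limma-voom and library totals only each called 6, and over all genes DESeq2 called 16.9% and limma-voom 18%. The median of the list was 0.04, near that of all genes. In KO_ASO vs KO_PBS, where 2.83% of all genes fell, 2 of the 20 fell, Cav3 (-0.70, edgeR adjusted P = 0.0260) and Dysf (-0.42, adjusted P = 0.0307).

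Mki67 and the mitotic genes were low in all groups, whereas the replication genes Mcm2 and Pcna had group means of 5.69 to 9.43 CPM and 6.02 to 6.99 CPM. In KO_PBS vs WT_PBS, where 7.43% of all genes rose and 5.12% fell, 3 of 11 tested rose, Mki67 (log2FC 2.40, SE 0.75, edgeR adjusted P = 0.0490), Ccna2 (2.34, adjusted P = 0.0299) and Ccnb2 (2.22, adjusted P = 0.0266), and the replication gene Mcm2 fell (-0.67, adjusted P = 0.0318). Ccna2 overlaps Exosc9 on the other strand. Limma-voom called 7, beside 18% of all genes. Mki67 measured 0.721 ± 0.292 CPM in WT_PBS and 3.78 ± 2.19 CPM in KO_PBS (SD, n = 4 each). Within KO_PBS, Mki67 was highest in replicate 1, at 7.06 CPM against 2.51 to 2.97 CPM in the other samples. In KO_ASO it measured 3.02 ± 3.66 CPM (SD, n = 4), and edgeR and DESeq2 called 0 of the 11 against KO_PBS, with unadjusted P under 0.05 for 0, while limma-voom called 1. Over all genes in that comparison, edgeR called 3.64%, DESeq2 7.06% and limma-voom 7.95%. KO_ASO replicate 4 stood apart, with Mki67 at 8.501 CPM and the other 3 samples at 1.005 to 1.56 CPM, and it was also the highest of its group for Top2a (8.43 CPM against 0.625 to 0.865), Ccna2 (4.01 against 0.383 to 0.969), Cdk1 (2.58 against 0.256 to 0.381) and the fusion gene Mymk. Of the 15203 genes tested without it, edgeR called 831, among them 1 of the 11, Top2a (adjusted P = 0.0473), which was lower than in KO_PBS. Unadjusted P was then under 0.05 for 9 of the 11, and their median log2FC was -1.50 in place of -0.16. This sample was left out after the data were seen. The cell type of the dividing cells is not resolved.

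**Figure D4:**
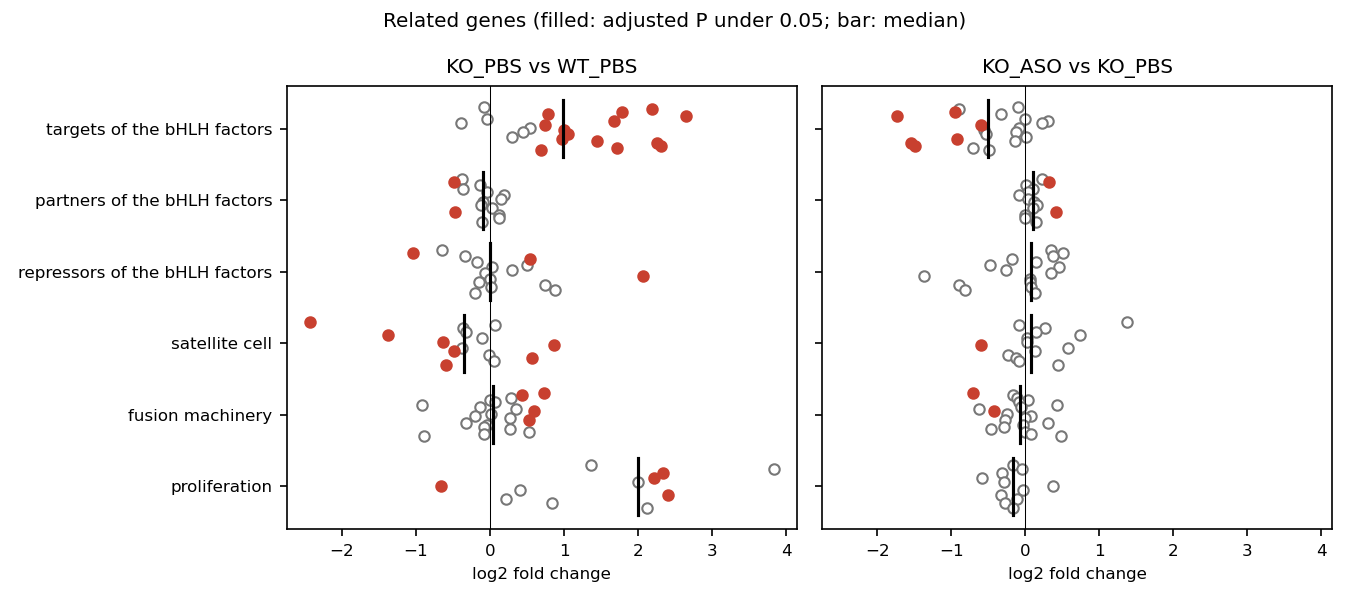
Fitted log2 fold changes (x axis) of single genes (points) in 6 lists of related genes (y axis) for KO_PBS vs WT_PBS on the left and KO_ASO vs KO_PBS on the right, which share the KO_PBS samples; filled points have an edgeR adjusted P under 0.05 and bars mark list medians. The 14 filled targets on the left are all above 0 and the 6 filled targets on the right all below 0, with medians of 0.98 and -0.51.

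Markers of macrophages and fibro-adipogenic cells moved with the knockout. Over all genes in KO_PBS vs WT_PBS, edgeR called 7.43% higher and 5.12% lower, DESeq2 called 16.9% and limma-voom 18%. All 8 macrophage markers rose in KO_PBS vs WT_PBS with edgeR and DESeq2, and 6 with limma-voom, and their summed level was 25.7 to 46.8 CPM in WT_PBS, 31.3 to 60.7 CPM in WT_ASO, 73.6 to 183 CPM in KO_PBS and 29.0 to 52.1 CPM in KO_ASO, with 0 markers at 0 counts in any group. Of 6 markers of fibro-adipogenic cells, 3 rose, and the sum was 758.2 to 1027 CPM in WT_PBS and 1034 to 1768 CPM in KO_PBS. Of 6 muscle fibre genes 1 fell, Tnnt3 (log2FC -0.40, edgeR adjusted P = 0.0153), a share near the 12.6% called over all genes. Tnnt3 overlaps Prr33 on the other strand, and its call was lost with library totals only. DESeq2 called 3 of the 6 muscle fibre genes and limma-voom 2. The sum was 140240 to 173368 CPM in WT_PBS and 118581 to 127929 CPM in KO_PBS. EdgeR, DESeq2 and limma-voom called 0 markers of endothelial cells, Schwann cells, adipocytes and red blood cells in this comparison, with unadjusted P under 0.05 for 1 endothelial marker. In KO_ASO vs KO_PBS edgeR called 5 of 8 macrophage markers lower (7 with DESeq2, 5 with limma-voom) and 1 of 6 fibro-adipogenic markers lower, Dcn (3 with DESeq2, 4 with limma-voom). Over all genes in this comparison, edgeR called 2.83% lower, and DESeq2 called 7.06% and limma-voom 7.95% in either direction. In KO_ASO the fibro-adipogenic sum was 410.1 to 1366 CPM and the muscle fibre sum 123331 to 143176 CPM, and edgeR and limma-voom called 0 muscle fibre genes against KO_PBS (DESeq2 2, and 2 with edgeR at an unadjusted P under 0.05). In WT_ASO these sums were 345.6 to 1236 CPM and 143800 to 202431 CPM. The interaction called 2 macrophage markers, Cd68 (interaction log2 value -3.11, edgeR adjusted P = 0.00355) and Cd163 (-2.05, adjusted P = 0.0391), and 6 with DESeq2 and 2 with limma-voom. Its shares over all genes were 0.575% with edgeR, 2.57% with DESeq2 and 0.722% with limma-voom. The part of these shifts in the levels of the 7 factors was not tested.

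The genes whose log2 CPM was most like that of each factor over the 16 samples were named by Pearson's r, given without a test because all genes share libraries and groups. Myog was most like Sox11 (r = 0.92), Eid1 (0.92) and Ywhah (0.92). Sox11, a transcription factor of developing and regenerating tissue, measured 0.0557 ± 0.0157 CPM in WT_PBS, 0.221 ± 0.0631 in WT_ASO, 2.24 ± 0.648 in KO_PBS and 0.660 ± 0.129 in KO_ASO (SD, n = 4 each). Its samples ran from 0.0372 to 0.0752 CPM in WT_PBS, 0.131 to 0.278 in WT_ASO, 1.58 to 2.98 in KO_PBS and 0.489 to 0.799 in KO_ASO. Both wild-type ranges of Sox11 rest on few reads a sample. Once group means were taken out its r with Myog was 0.32, so most of the likeness lay between groups. Pax7 was most like Pip5k1c (r = 0.93, and 0.86 without group means), Dcun1d2 (0.93) and Gm15756 (0.90), which overlaps Aldh1l1 on the other strand. Myf5 was most like Calcr (r = 0.88, and 0.77 without group means), a gene that also sits in the satellite cell list, then Chodl (0.84) and Sh3kbp1 (0.84). Myod1 was most like Skil (r = 0.83), Atoh8 (0.81) and the circadian gene Cry1 (0.80). For Cry1 the r without group means was also 0.80, so Myod1 and Cry1 varied together among samples of the same group. Myf6 was most like Galnt17 (r = 0.85), Bves (0.82) and A530001N23Rik (0.82), and Mymk was most like Wasf3 (0.88), Fkbp14 (0.88) and Ppic (0.87).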

How the data were processed

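Total RNA of 16 tibialis anterior samples was made into stranded mRNA libraries, per the labels. The authors deposited raw counts of reads per Ensembl gene, not normalized, with 1 column per sample. Of the software, the processing notes of the submitters list STAR 2.5.3a, HTSeq 0.6.1p1, cutadapt 1.10 and Bowtie2 2.2.8, with GRCm38 as the build and no role stated. Reads shared by related genes, or assigned without strand, could move between genes.

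Counts were tested with edgeR 4.0.16 (R 4.3.3). The filter filterByExpr, given the groups, kept 14960 of 29730 genes. TMM scaling and the robust quasi-likelihood test were used, and all 16 samples entered 1 model whose terms were the 4 group means. P values were adjusted over all genes tested by the Benjamini-Hochberg method, and DEGs had an adjusted P under 0.05. The SE is the log2FC divided by the square root of the F statistic. The common coefficient of variation was 18.7%. Nothing in the labels says whether samples came from separate animals, so P values measure the spread between these samples. The script was tested on simulated data. Single values were also compared by two-sided exact permutation. Alternatives were other size factors, library totals, no filter, DESeq2 1.42.0, limma-voom with quality weights (limma 3.58.1), a replicate block, 2 groups alone and leaving out each sample. Depth limits Myf5, Mymk and Mymx most.

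The members and gene lists were chosen with earlier results of these data known. All members are named. From each related list the 4 genes with the smallest P in KO_PBS vs WT_PBS are named, with up to 4 further genes called in other comparisons. Other list genes were named after their values were seen. For likeness, the 3 genes with the highest r were named (log2 CPM, prior count 2).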

Additional observations from a re-analysis of the deposited data

Results flagged for a closer look

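A sample apart from the other 3 of its group was looked for in 28 sets of 4 values (7 genes in 4 groups), with a criterion that chance meets in about 1 in 20 sets. Myf6 in WT_ASO replicate 4, at 87.7 CPM, was the lowest of its group, with the other 3 samples at 113 to 117 CPM. Pax7 in KO_PBS replicate 3, at 2.39 CPM, was the highest of its group, with the other 3 samples at 1.28 to 1.41 CPM. The effect of ASO1 on Pax7 went in opposite directions in the 2 genotypes: every KO_ASO sample lay above the mean of KO_PBS and every WT_ASO sample below the mean of WT_PBS. The difference between these effects was 1.02 on the log2 scale (SE 0.31) and did not pass the test (edgeR adjusted P = 0.154).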

How the results depend on the processing

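For KO_PBS vs WT_PBS the number of the 7 genes called was 3, and when samples were left out it ran from 2 to 4. It was 4 without the filter, with Mymx added, and with these groups alone, with Mymk added. In some of the fits without 1 sample Mymx came through the filter and was called. Myog and Pax7 passed in each, with log2FCs of 2.70 to 2.86 and -1.42 to -1.24 across the other settings and 2.53 to 2.88 and -1.66 to -1.26 when samples were left out. For KO_ASO vs KO_PBS the count was 0 and became 1 with DESeq2, 1 with limma-voom and 0 to 1 when samples were left out. For KO_ASO vs WT_PBS it was 1, and became 0 with no filter, limma-voom, the replicate block or these groups alone, 2 with DESeq2, and 0 to 1 when samples were left out. For KO_ASO vs WT_ASO it was 0, and became 1 with DESeq2 and 0 to 1 when samples were left out. For the interaction it was 0, and 0 to 1 when samples were left out.

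Some differences that did not pass the test changed sign. Myod1 for WT_ASO vs WT_PBS was -0.042 with library totals and -0.0697 with the replicate block, and ran from -0.27 to 0.23 when samples were left out. The Mymk interaction was 0.19 with limma-voom and ran from -0.91 to 0.55, Mymk for KO_ASO vs KO_PBS from -0.11 to 0.82, Mymk for WT_ASO vs WT_PBS from -0.00734 to 1.15, and Myf6 for KO_ASO vs WT_PBS from -0.0695 to 0.21 when samples were left out. The cause was not tested. Without WT_ASO replicate 4 the log2 ratio of Myog to Myod1 for WT_ASO vs WT_PBS was 0.12 in place of 0.53, and without KO_ASO replicate 1 that for KO_ASO vs WT_PBS was 1.31 in place of 1.05.

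Of 24 pairs of samples with the same replicate number, 11 had a correlation of deviations from group means over 0.1 (range -0.0777 to 0.435). Of the 16 samples, 13 correlated best with their own number. The main fit took no account of these numbers, and what they stand for was not tested. With the replicate block, edgeR called 2322 genes in place of 1878 for KO_PBS vs WT_PBS. It called 752 in place of 544 for KO_ASO vs KO_PBS, 44 in place of 11 for KO_ASO vs WT_ASO, and 126 in place of 86 for the interaction. Apart from Myog for KO_ASO vs WT_PBS, the replicate block changed no call of the 6 genes tested.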
